A study of Homo sapiens with 11 samples.

Results

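This report compares A549 cells kept in the vehicle dimethyl sulfoxide (DMSO) for 2 weeks with A549 cells kept in DMSO for 48 hours. A549 is an established human lung adenocarcinoma line with features of alveolar and secretory epithelium. The members were chosen by title: 3 libraries of DMSO 2 weeks (replicates 1 to 3) and 2 of DMSO 48 hours (replicates 2 and 3), 5 of the 11 libraries of the series. The other 6 libraries, 3 of cells given cigarette smoke condensate (CSC, whose dose is given in the labels as 20 µM although it is a mixture) for 2 weeks and 3 of cells given it for 48 hours, served to estimate the spread and, at the end, for comparison. All were grown on 15 cm plates, and RNA was depleted of ribosomal RNA before sequencing. No agent other than DMSO or CSC, no transgene and no clone is named in the labels. DMSO is the solvent in which the condensate is given, so this comparison asks what time in culture does without smoke. Time, and anything that differed between the preparations of both groups (passage, density at harvest, the day of library preparation), cannot be told apart here.

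Airway epithelium secretes antimicrobial proteins and protease inhibitors, takes up sodium through an apical channel, and lays down and remodels the matrix it sits on. Transforming growth factor beta (TGF-beta) signals through a pair of kinase receptors, TGFBR1 and TGFBR2, to genes of matrix and actin, and activin and bone morphogenetic protein (BMP) signals use related receptors. Epithelial lines can shift along these programmes as they become dense and are kept for longer.

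The 14 largest rises by the naming rule were headed by HNRNPA1P10, a pseudogene symbol whose value is uncertain, and also held secreted defence proteins, a neuropeptide, a sodium channel subunit and a TGF-beta receptor. The largest falls by that rule were led by a neutrophil chemokine and an activin antagonist. The 250 bases upstream of the annotated start are shown for 3 rises with a RefSeq entry and for the largest fall that the rule names, to place these genes (RefSeq promoter table, build GRCh38.p14, the gene's own strand, 5′ to 3′). Of the 26 genes with the largest changes, 18 matched the table. Each window was searched on both strands for 4 motifs, and capitals mark the matches. The TATA box, searched as TATAAA, occurred in 11.1% of 27303 such windows. The AP-1 element, searched as TGANTCA, occurred in 6.6%. The letters CCAAT occurred in 33.0%, and the GC box, searched as GGGCGG, in 42.3%.
NTS (chr12:85874045-85874294, plus strand): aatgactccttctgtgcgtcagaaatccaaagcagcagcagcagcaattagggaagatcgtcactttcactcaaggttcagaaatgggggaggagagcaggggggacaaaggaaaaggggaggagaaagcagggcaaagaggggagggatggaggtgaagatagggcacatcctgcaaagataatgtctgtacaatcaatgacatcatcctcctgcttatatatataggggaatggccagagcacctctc
LCN2 (chr9:128149203-128149452, plus strand): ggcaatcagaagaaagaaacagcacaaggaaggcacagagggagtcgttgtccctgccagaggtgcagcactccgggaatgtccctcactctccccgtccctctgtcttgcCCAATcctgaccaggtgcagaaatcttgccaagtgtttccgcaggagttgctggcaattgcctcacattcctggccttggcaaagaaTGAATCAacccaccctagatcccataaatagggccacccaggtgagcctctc
TGFBR1 (chr9:99104863-99105112, plus strand): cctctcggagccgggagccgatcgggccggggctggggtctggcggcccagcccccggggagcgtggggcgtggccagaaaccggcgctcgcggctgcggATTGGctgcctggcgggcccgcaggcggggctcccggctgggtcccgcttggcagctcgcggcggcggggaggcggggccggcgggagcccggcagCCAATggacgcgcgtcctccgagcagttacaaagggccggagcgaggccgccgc
CXCL5 (chr4:73998678-73998927, minus strand): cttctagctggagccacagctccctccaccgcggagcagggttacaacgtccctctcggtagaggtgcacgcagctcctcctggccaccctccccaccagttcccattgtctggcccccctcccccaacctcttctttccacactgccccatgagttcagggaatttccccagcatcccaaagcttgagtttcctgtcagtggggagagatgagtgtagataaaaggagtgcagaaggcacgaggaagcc
The LCN2 window held 1 TGANTCA match, beginning 52 bases upstream of the start, and 1 CCAAT match at 139 bases. The TGFBR1 window held CCAAT on the minus strand (ATTGG) at 150 bases and on the plus strand at 54 bases. It was 79.6% G and C with 35 CpG dinucleotides, against medians of 58.0% and 11 over all windows. The NTS window was 49.2% G and C with 2 CpG dinucleotides. None of the 4 motifs was found in the NTS and CXCL5 windows. A match is a description of the sequence and not evidence of a bound factor.

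Expression was deposited as FPKM (fragments per kilobase of transcript, scaled to the mapped fragments of the library), and each change below is a difference of means of log2(FPKM + 0.5), given with its standard error (SE). The FPKM summed to 401839, 394253 and 363873 in the DMSO 2 weeks libraries, against 360969 and 350314 in the DMSO 48 hours libraries, and 11742 to 12051 genes per library of the series reached an FPKM of 1. The depth in reads is not given. The steps between low values put the relative depth at 1.10, 1.27 and 1.33 in DMSO 2 weeks, against 1.08 and 1.03 in DMSO 48 hours. All 12 epithelial line markers, such as the keratins KRT7, KRT8 and KRT18 and the aldehyde dehydrogenase ALDH1A1, were at an FPKM of at least 1 in all 5 DMSO libraries, with sums of 7314 to 8360 in DMSO 2 weeks against 5698 and 6246 in DMSO 48 hours. Of the markers of other cells, 7 of 9 fibroblast, all 8 endothelial and 8 of 9 leukocyte genes lay under an FPKM of 1 in every one of these 5 libraries. In bulk RNA, fewer cells of a type and less RNA per cell cannot be told apart.

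The DMSO 48 hours libraries were less alike than the DMSO 2 weeks libraries. Over the tested genes the log2 values correlated at 0.9861 to 0.9895 between the DMSO 2 weeks libraries, at 0.980 between both DMSO 48 hours libraries, and at 0.9765 to 0.982 across the groups. These genes share libraries and are not independent. The first principal component (44.2% of the variance) had scores of 18.3, 14.4 and 4.16 in DMSO 2 weeks, against -19.9 and -17.0 in DMSO 48 hours. The second (27.4%) was 1.15, -7.22 and 10.8 in DMSO 2 weeks, and 14.8 and -19.6 in DMSO 48 hours, where it set replicate 2 apart from replicate 3.

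Most called genes were higher in DMSO 2 weeks than in DMSO 48 hours. Of 12108 genes tested, 92 rose (0.760%) and 14 fell (0.116%) at an adjusted p under 0.05 (limma, Benjamini-Hochberg). The called rises had a median log2 change of 0.96 and 40 were of at least 1, and the called falls had a median of -0.96 with 6 of -1 or below. The groups did not overlap in any of the 106 called genes, whereas over all tested genes all DMSO 2 weeks libraries lay above both DMSO 48 hours libraries in 3547 genes (29.3%) and below them in 921 (7.61%). The change was above 0 in 8351 genes (69.0%) with a median of 0.09, which moved to -0.02 when the FPKM were scaled to a common sum and to -0.01 under quantile normalization. Rises made up 86.8% of the calls as deposited, 66.7% with a common sum (32 higher, 16 lower), 69.8% under quantile normalization (44 and 19) and 71.6% under median-of-ratios scaling (48 and 19).

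Counts depended on single libraries. Without DMSO 48 hours replicate 2 there were 45 rises and 4 falls, and without replicate 3 there were 24 and 4. Leaving out DMSO 2 weeks replicate 1, 2 or 3 gave 23 and 6, 29 and 4, and 33 and 4. Without CSC 48 hours replicate 3, which enters only the estimate of spread, there were 207 and 26, and without CSC 2 weeks replicate 3 there were 56 and 11. In every one of these 11 fits 13 rises and 2 falls were called. The labels do not say that replicates are separate cultures, so the p-values reflect only how far these libraries differ from each other, which may be technical.

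**Figure D1:**
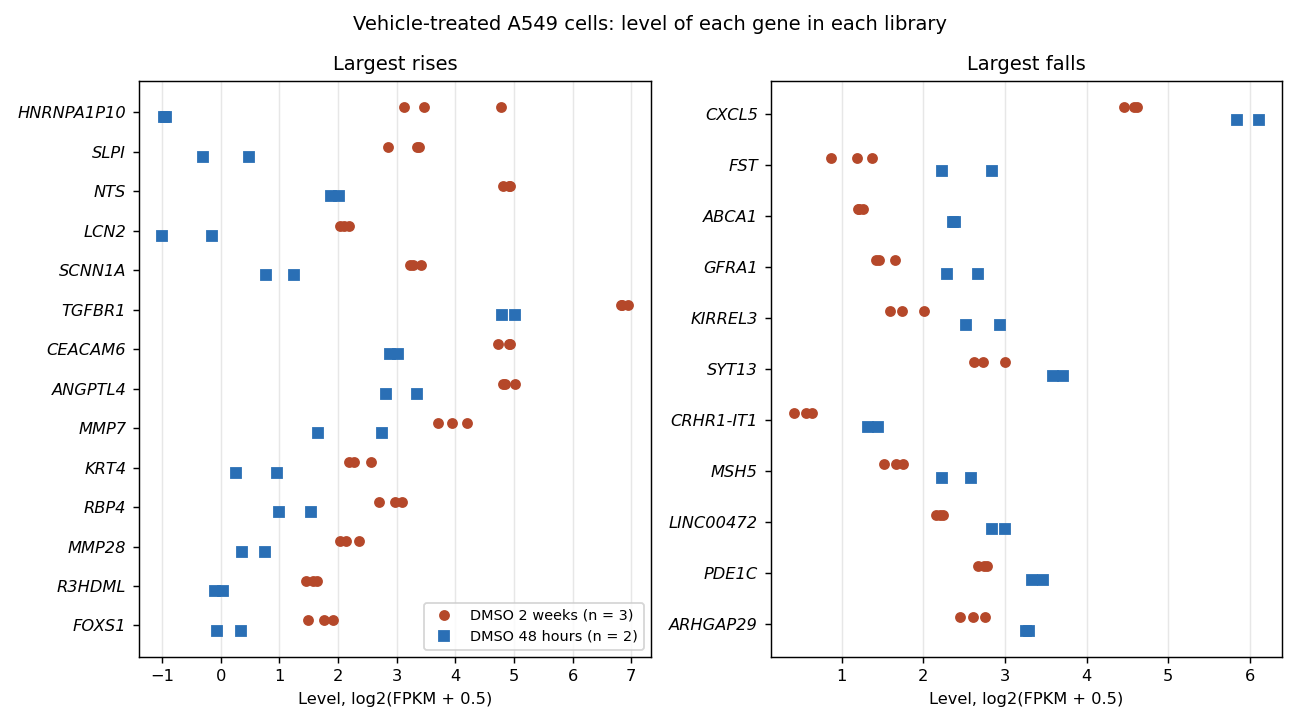
Level on the log2(FPKM + 0.5) scale (horizontal axis) of the genes with the largest rises (left panel) and falls (right panel), with 1 point per library: red circles for DMSO 2 weeks, blue squares just below them for DMSO 48 hours. In every gene shown the 3 libraries of DMSO 2 weeks lie on one side of the 2 libraries of DMSO 48 hours, as the naming rule requires.

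Secreted defence proteins of the airway were higher after 2 weeks. SLPI, the secretory leukocyte protease inhibitor of airway mucus (hg19 chromosome 20, 43880879 to 43883206), was at 9.62, 9.97 and 6.70 FPKM in DMSO 2 weeks, against 0.896 and 0.307 FPKM in DMSO 48 hours. All 3 DMSO 2 weeks libraries stood well above the higher of the DMSO 48 hours libraries, and SLPI rose by 3.11 ± 0.34 (SE; adjusted p = 6.04e-04), a call kept in all 11 fits with a library left out. LCN2, lipocalin 2, which starves bacteria of iron by binding their siderophores (chromosome 9, 130911732 to 130915734), was at 3.80, 4.08 and 3.59 FPKM in DMSO 2 weeks, and listed at 0 and at 0.402 FPKM in DMSO 48 hours. Its change was 2.69 ± 0.45 (adjusted p = 0.0147). It missed the threshold when DMSO 48 hours replicate 2 was left out (adjusted p = 0.131) and without DMSO 2 weeks replicate 1, 2 or 3 (0.0634, 0.0643 and 0.0572).

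CEACAM6, a cell surface adhesion protein that binds bacteria (chromosome 19, 42259398 to 42276113), was at 29.7, 30.1 and 26.1 FPKM in DMSO 2 weeks, against 7.64 and 6.93 FPKM in DMSO 48 hours. It rose by 1.90 ± 0.27 (adjusted p = 0.00526), with an adjusted p of 0.0616 when DMSO 48 hours replicate 3 was left out. Its relative CEACAM5, the carcinoembryonic antigen, stood at 1.63, 1.36 and 1.19 FPKM in DMSO 2 weeks, against 0.218 and 0.0760 FPKM in DMSO 48 hours (1.55 ± 0.24, adjusted p = 0.00878). The call ended without DMSO 48 hours replicate 3 (0.0877) and without DMSO 2 weeks replicate 1 (0.0590).

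Of the 40 genes listed for airway and mucosal defence, 11 were measured and 4 rose, the genes above, with a median of 1.35 over the 11, all of them above 0. Over all tested genes 0.760% rose and the median was 0.09. This list, like every list in this report, was chosen with earlier results of these data known. Such shares are descriptions and not tests. Of the 11, 7 were higher in DMSO 2 weeks without overlap, against 29.3% of all tested genes. SLPI, LCN2, CEACAM5 and DEFB1 lay under an FPKM of 1 in both DMSO 48 hours libraries and were tested only through their DMSO 2 weeks levels. The counts and the median of this list are therefore partly set by the filter. The members that were not called differed in how far they spread at 48 hours. AGR2, a protein disulfide isomerase of mucus-secreting cells, was at 145, 156 and 128 FPKM in DMSO 2 weeks, against 34.9 and 88.0 FPKM in DMSO 48 hours (1.35 ± 0.43, adjusted p = 0.174). The defensin gene DEFB1 was at 3.01, 4.02 and 3.52 FPKM in DMSO 2 weeks, against 0.884 and 0.901 FPKM in DMSO 48 hours (1.52 ± 0.35, 0.0709). S100P, a calcium-binding protein, overlapped, with 9.59, 6.6 and 6.65 FPKM in DMSO 2 weeks against 1.52 and 8.52 FPKM in DMSO 48 hours. As deviations from the mean of the 5 libraries, the list's medians were 0.57, 0.60 and 0.38 in DMSO 2 weeks, against -1.08 and -0.15 in DMSO 48 hours, so the low level lay mostly in DMSO 48 hours replicate 2. Without that library the median change was 0.69, and without replicate 3 it was 1.53.

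Genes of secreted plasma proteins also had higher levels after 2 weeks in most cases. RBP4, the plasma carrier of retinol (chromosome 10, 95351593 to 95360993), was at 6.03, 7.98 and 7.37 FPKM in DMSO 2 weeks, against 1.5 and 2.41 FPKM in DMSO 48 hours. It rose by 1.65 ± 0.28 (adjusted p = 0.0165), and missed the threshold without DMSO 48 hours replicate 2 (0.146) or DMSO 2 weeks replicate 2 (0.0770) or 3 (0.0671). VTN, the adhesive plasma protein vitronectin, rose by 1.31 ± 0.25 (adjusted p = 0.0309), a call that ended without any 1 of the 5 DMSO libraries (0.0667 to 0.181). These were the 2 called genes among 15 measured of the acute-phase and liver-type list, against 0.760% of all tested genes called higher. The list median was 1.05 with 14 changes above 0, against 69.0% of all tested genes. In this list 10 genes were higher in DMSO 2 weeks without overlap, against 29.3% of all tested genes, and 1 was lower without overlap, against 7.61%. That gene, picked out after its value was seen, was the apolipoprotein gene APOM (-0.89 ± 0.45, adjusted p = 0.433). The fibrinogen chains FGA, FGB and FGG had changes of 1.59 ± 0.51, 1.43 ± 0.41 and 1.49 ± 0.63, with adjusted p of 0.185, 0.136 and 0.340. FGA was at 36.1, 36.6 and 30.4 FPKM in DMSO 2 weeks, against 6.53 and 18.5 FPKM in DMSO 48 hours, so here too DMSO 48 hours replicate 2 was the lowest. The list median was 0.63 without it.

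The transcription factor gene HNF4A, which drives many liver-type genes, rose by 0.82 ± 0.15 (adjusted p = 0.0237). It was picked out after its value was seen. It stood at 20.2, 17.4 and 18.6 FPKM in DMSO 2 weeks, against 8.55 and 12.6 FPKM in DMSO 48 hours. It missed the threshold without DMSO 48 hours replicate 2 (adjusted p = 0.204, the highest of 4 such fits) and without any 1 of the DMSO 2 weeks libraries.

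Complement genes followed. Of 9 measured, 2 rose and all had changes above 0, against 0.760% and 69.0% of all tested genes, and the median was 0.89. DMSO 2 weeks was higher without overlap in 7 of them, against 29.3% of all tested genes. CFD, the protease factor D of the alternative pathway, was at 13.8, 12.0 and 11.3 FPKM in DMSO 2 weeks, against 6.11 and 6.74 FPKM in DMSO 48 hours (0.89 ± 0.13, adjusted p = 0.00806). C1S, a protease of the first complex, was at 36.5, 37.5 and 30.9 FPKM in DMSO 2 weeks, against 12.7 and 15.0 FPKM in DMSO 48 hours (1.31 ± 0.25, 0.0298). Both lost their call without DMSO 48 hours replicate 2 (0.0904 for CFD, 0.187 for C1S) or replicate 3 (0.0539 and 0.115), and C1S also without any 1 of the DMSO 2 weeks libraries (0.0706 to 0.128). C3, the central component, was at 19.2, 18.0 and 16.8 FPKM in DMSO 2 weeks, against 7.39 and 8.91 FPKM in DMSO 48 hours, and just missed the threshold (1.10 ± 0.24, 0.0519).

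A neuropeptide, a channel and a lipase inhibitor also rose. NTS, which encodes neurotensin (chromosome 12, 86268073 to 86276770; its upstream window is given above), was at 30.0, 29.7 and 27.5 FPKM in DMSO 2 weeks, against 3.53 and 3.18 FPKM in DMSO 48 hours. The replicates of each group lay close together and the change was 2.94 ± 0.29 (adjusted p = 3.00e-04). SCNN1A, the alpha subunit of the epithelial sodium channel that airway cells use to absorb fluid (chromosome 12, 6456009 to 6486523), was at 9.16, 10.1 and 8.89 FPKM in DMSO 2 weeks, against 1.20 and 1.87 FPKM in DMSO 48 hours (2.30 ± 0.21, 1.83e-04). ANGPTL4, a secreted inhibitor of lipoprotein lipase (chromosome 19, 8429011 to 8439257), was at 31.8, 28.3 and 27.6 FPKM in DMSO 2 weeks, against 9.72 and 6.54 FPKM in DMSO 48 hours (1.81 ± 0.19, 4.70e-04). All 3 kept their call in each of the 11 fits with a library left out. ANGPTL4 was the 1 called gene among 21 measured hypoxia targets (median 0.23) and among 16 measured genes of lipid droplets and fatty acid oxidation (median 0.20). Of all tested genes 0.760% were called higher.

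FKBP5 and PER1, genes that glucocorticoids are known to induce, also rose, and were picked out after their values were seen. FKBP5, a co-chaperone of the glucocorticoid receptor, was at 16.7, 16.9 and 14.8 FPKM in DMSO 2 weeks, against 6.81 and 6.71 FPKM in DMSO 48 hours (1.20 ± 0.12, adjusted p = 3.00e-04, called in all 11 fits). PER1, a component of the circadian clock, was at 8.04, 7.07 and 6.77 FPKM in DMSO 2 weeks, against 2.64 and 2.73 FPKM in DMSO 48 hours (1.29 ± 0.24, 0.0268). The PER1 call ended without any 1 of the 5 DMSO libraries, with an adjusted p of up to 0.140.

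Within the TGF-beta pathway, the type I receptor showed the smallest adjusted p of all rises. TGFBR1, the kinase that phosphorylates SMAD2 and SMAD3 (chromosome 9, 101867412 to 101916473), was at 122, 115 and 113 FPKM in DMSO 2 weeks, against 32.0 and 27.3 FPKM in DMSO 48 hours. The ratio of the means was 3.94 and the log2 change 1.96 ± 0.13 (adjusted p = 7.20e-06), called in all 11 fits. The other parts of the pathway moved less. The type II receptor TGFBR2 was at 50.2, 48.3 and 45.4 FPKM in DMSO 2 weeks, against 29.2 and 35.1 FPKM in DMSO 48 hours (0.58 ± 0.16, 0.111). The ligand TGFB1 had a change of 0.04 ± 0.13 (0.925) and TGFB2 of 0.48 ± 0.20 (0.333), and the inhibitory SMAD7 of 0.45 ± 0.15 (0.222).

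Of 30 measured TGF-beta response and mesenchymal genes 3 rose, TGFBR1, COL1A1 and SNAI1, against 0.760% of all tested genes. The median was 0.48 and 28 changes were above 0, against 69.0% of all tested genes. DMSO 2 weeks was higher without overlap in 23 genes, against 29.3% of all tested genes, and lower without overlap in 1, against 7.61%. That gene, picked out after its value was seen, was NT5E, the ecto-enzyme CD73 (-0.48 ± 0.15, adjusted p = 0.169). COL1A1, a chain of fibrillar collagen I, was at 11.5, 10.4 and 11.5 FPKM in DMSO 2 weeks, against 6.28 and 3.96 FPKM in DMSO 48 hours (1.08 ± 0.17, adjusted p = 0.0123). SNAI1, a repressor of E-cadherin, was at 4.0, 3.80 and 4.35 FPKM in DMSO 2 weeks, against 2.20 and 1.7 FPKM in DMSO 48 hours (0.90 ± 0.18, 0.0334). The COL1A1 call ended without DMSO 48 hours replicate 3 (0.128) or DMSO 2 weeks replicate 1 (0.0634) or 3 (0.0572), and the SNAI1 call without any 1 of the 5 DMSO libraries or CSC 2 weeks replicate 3 (0.0534 to 0.256). Summed fibroblast markers were at 13.3 to 15.0 FPKM in DMSO 2 weeks, against 7.23 and 8.67 FPKM in DMSO 48 hours, most of it COL1A1 itself, while COL1A2, DCN and FAP were listed at 0 in all 5 libraries.

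TAGLN, an actin-binding protein and a standard target of TGF-beta, was at 37.8, 33.9 and 36.6 FPKM in DMSO 2 weeks, against 25.0 and 7.96 FPKM in DMSO 48 hours (1.32 ± 0.46, adjusted p = 0.222). The groups did not overlap, and replicate 3 was far below replicate 2 within DMSO 48 hours. The list medians, as deviations from the mean of the 5 libraries, were 0.26, 0.19 and 0.16 in DMSO 2 weeks, against -0.08 and -0.43 in DMSO 48 hours. That is the opposite order of both DMSO 48 hours libraries from the median of the defence list. Of the 4 called defence genes, LCN2 had the order of that median, while SLPI, CEACAM6 and CEACAM5 were lower in replicate 3. Without DMSO 48 hours replicate 3 the median change of the TGF-beta list was 0.28, and without replicate 2 it was 0.63.

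**Figure D2:**
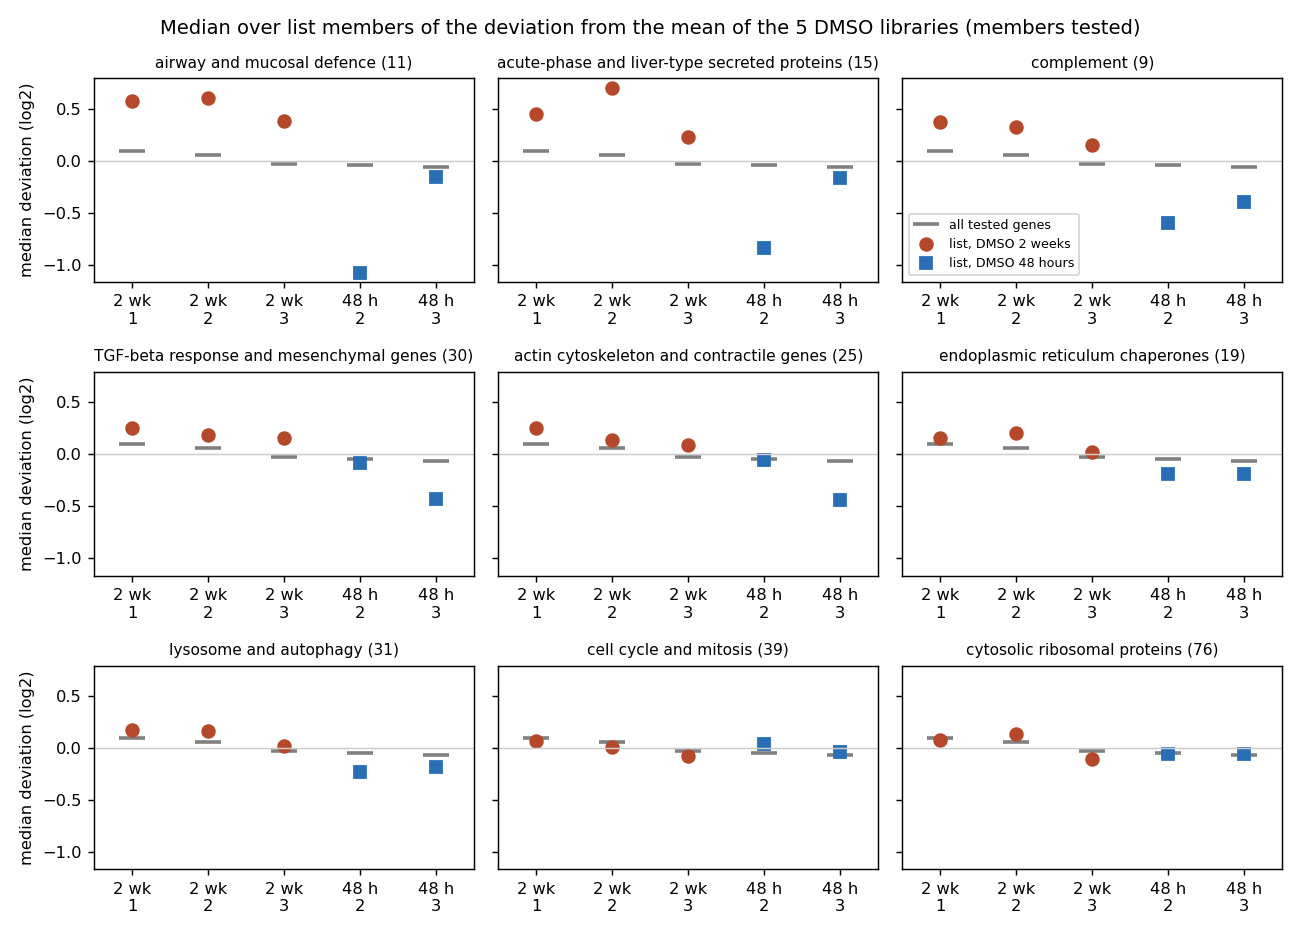
Median deviation of gene lists (log2(FPKM + 0.5) minus the gene's mean over the 5 DMSO libraries) in each library, red circles for DMSO 2 weeks left of blue squares for DMSO 48 hours, with grey bars for the median of all tested genes. Airway defence and acute-phase lists are lowest in DMSO 48 hours replicate 2 (-1.08 and -0.84), and TGF-beta and actin lists in DMSO 48 hours replicate 3 (-0.43 and -0.44).

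Actin and contractile genes had the same order of libraries. Of 25 measured, 2 rose and 24 had changes above 0, against 0.760% and 69.0% of all tested genes, and the median was 0.41. DMSO 2 weeks was higher without overlap in 19 of them, against 29.3% of all tested genes. MYL9, the regulatory light chain of contractile myosin, was at 5.04, 4.81 and 5.14 FPKM in DMSO 2 weeks, against 1.75 and 1.02 FPKM in DMSO 48 hours (1.57 ± 0.17, adjusted p = 6.82e-04, called in all 11 fits). CALD1, caldesmon, which restrains actin-activated myosin, was at 55.8, 57.8 and 52.5 FPKM in DMSO 2 weeks, against 35.9 and 30.2 FPKM in DMSO 48 hours (0.74 ± 0.13, 0.0237). Its call ended without any 1 of the 5 DMSO libraries (0.0611 to 0.217). For ACTB, cytoplasmic beta-actin, the groups did not overlap either, and the change of 0.47 ± 0.22 missed the threshold (0.397).

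Genes that attach cells to matrix or cut it included several rises, and their counts stand against 0.760% of all tested genes called higher. ITGB6, the epithelial integrin subunit that with alpha V activates latent TGF-beta, was at 4.02, 3.76 and 4.05 FPKM in DMSO 2 weeks, against 2.13 and 0.937 FPKM in DMSO 48 hours (1.19 ± 0.21, adjusted p = 0.0236). It was the 1 called gene of 13 measured integrin subunits (median 0.40), and its call ended without DMSO 48 hours replicate 3 (0.161) or any 1 of the DMSO 2 weeks libraries (0.0805 to 0.103). MMP28, the metalloprotease epilysin (chromosome 17, 34092876 to 34122640), was at 4.61, 3.61 and 3.89 FPKM in DMSO 2 weeks, against 1.19 and 0.778 FPKM in DMSO 48 hours (1.62 ± 0.23, 0.00581). It missed the threshold without DMSO 48 hours replicate 3 (0.0790). MMP7, matrilysin (chromosome 11, 102391239 to 102401478), was at 14.9, 17.8 and 12.5 FPKM in DMSO 2 weeks, against 2.66 and 6.20 FPKM in DMSO 48 hours (1.75 ± 0.33, 0.0298).

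The MMP7 call ended without DMSO 48 hours replicate 2 (adjusted p = 0.230), without any 1 of the DMSO 2 weeks libraries (0.0667 to 0.120) and without CSC 2 weeks replicate 3 (0.0534). TIMP2, an inhibitor of these proteases, was the last of 3 called genes of 27 measured in the list (0.67 ± 0.14, 0.0465, with a list median of 0.31). For this list and for the basement membrane and keratin lists below, the share called higher over all tested genes was 0.760%. The TIMP2 call was among the less stable ones. It was called in 3 of the 11 fits with a library left out (up to 0.384, without DMSO 48 hours replicate 3). In the basement membrane list LAMB3, a laminin chain of epithelial anchorage, was the 1 called gene of 19 measured (median 0.30). Its call ended without DMSO 48 hours replicate 3 (0.0790). KRT4, a keratin of stratified mucosa (chromosome 12, 53200327 to 53207900), was the 1 called gene of 9 measured keratins (list median 0.41), at 5.40, 4.35 and 4.05 FPKM in DMSO 2 weeks against 0.697 and 1.45 FPKM in DMSO 48 hours. It rose by 1.73 ± 0.26 (0.00824), and missed the threshold without DMSO 48 hours replicate 2 (0.0904) or DMSO 2 weeks replicate 1 (0.0528).

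Further large rises with no list of their own were R3HDML and FOXS1. Both genes lay under an FPKM of 1 in both DMSO 48 hours libraries and were tested only through their DMSO 2 weeks levels. R3HDML, a putative secreted protein gene (chromosome 20, 42965626 to 42979875), was at 2.24, 2.46 and 2.61 FPKM in DMSO 2 weeks, against 0.521 and 0.433 FPKM in DMSO 48 hours (1.59 ± 0.20, adjusted p = 0.00201, called in all 11 fits). FOXS1, a forkhead transcription factor gene (chromosome 20, 30432103 to 30433420), was at 2.90, 2.31 and 3.27 FPKM in DMSO 2 weeks, against 0.767 and 0.455 FPKM in DMSO 48 hours (1.59 ± 0.26, 0.0147). The FOXS1 call ended without DMSO 48 hours replicate 3 (0.140) or DMSO 2 weeks replicate 1 (0.0729) or 3 (0.0709). Among calls picked out after their values were seen, HTRA3, a secreted serine protease, rose by 1.52 ± 0.13 (1.33e-04), the adhesion receptor GPR56 by 1.56 ± 0.15 (3.00e-04) and the focal adhesion protein TNS4 by 1.16 ± 0.12 (5.66e-04). Each of these 3 was called in all 11 fits. TGM2, a transglutaminase that crosslinks matrix and responds to retinoic acid, rose by 0.99 ± 0.13 (0.00373), with an adjusted p of 0.0669 without DMSO 48 hours replicate 3.

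The largest rise by size was that of HNRNPA1P10, and it is uncertain. This symbol lay under an FPKM of 1 in both DMSO 48 hours libraries and was tested only through its DMSO 2 weeks levels. It was at 27.1, 10.5 and 8.27 FPKM in DMSO 2 weeks, against 0.0248 and 0.00908 FPKM in DMSO 48 hours (4.74 ± 0.79, adjusted p = 0.0147). The files place this symbol at chromosome 12, 54674533 to 54678663, inside the HNRNPA1 locus (54674488 to 54679030), whereas GENCODE puts the pseudogene on chromosome 19. HNRNPA1 itself was at 188, 213 and 185 FPKM in DMSO 2 weeks, against 192 and 173 FPKM in DMSO 48 hours (0.10 ± 0.14, 0.840), and the quantifier may split reads between both entries. The call ended without DMSO 48 hours replicate 2 (0.0904) or 3 (0.1), or DMSO 2 weeks replicate 1 (0.0726).

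Falls were fewer. CXCL5, a chemokine that attracts neutrophils (chromosome 4, 74861359 to 74864416; upstream window above), was at 24.0, 23.4 and 21.5 FPKM in DMSO 2 weeks, against 56.6 and 68.6 FPKM in DMSO 48 hours. All DMSO 2 weeks libraries were below both DMSO 48 hours libraries, and CXCL5 fell by 1.42 on the log2 scale (SE 0.12, adjusted p = 1.33e-04), called in all 11 fits. It was the 1 called gene of 16 measured inflammatory cytokines and chemokines, whose median was -0.03. For this list and for the BMP list below, the share called lower over all tested genes was 0.116%. Of the related chemokines, CXCL2 had a change of -0.92 ± 0.42 (0.377) and CXCL1 of -0.20 ± 0.30 (0.841).

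FST, follistatin, a secreted antagonist of activin and BMP (chromosome 5, 52776264 to 52782304), was at 1.33, 2.08 and 1.79 FPKM in DMSO 2 weeks, against 4.18 and 6.65 FPKM in DMSO 48 hours (-1.39 ± 0.21, adjusted p = 0.00772). It missed the threshold without DMSO 48 hours replicate 3 (0.0970), and was the 1 called gene of 13 measured in the BMP list (median 0.20). INHBB, a subunit of activin B, went the other way at 24.2, 24.7 and 19.9 FPKM in DMSO 2 weeks, against 10.2 and 10.8 FPKM in DMSO 48 hours (1.08 ± 0.16, 0.00766). FSTL3, a relative of follistatin that also binds activin, rose by 0.91 ± 0.18 (0.0371). INHBB and FSTL3 were picked out after their values were seen. Without DMSO 48 hours replicate 2 or 3 INHBB was not called (up to 0.0710), and FSTL3 was called in 5 of the 11 fits (up to 0.279, without DMSO 48 hours replicate 3).

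ABCA1, the exporter of cholesterol to apolipoproteins (chromosome 9, 107543284 to 107690527), was at 1.81, 1.91 and 1.80 FPKM in DMSO 2 weeks, against 4.73 and 4.64 FPKM in DMSO 48 hours (-1.15 ± 0.14, adjusted p = 0.00155, called in all 11 fits). Of the 20 genes measured in the cholesterol synthesis list, 16 had changes above 0, against 69.0% of all tested genes. The median was 0.15, and 0.06, 0.04 and 0.03 under median-of-ratios, common sum and quantile scaling. In DMSO 2 weeks 9 were higher without overlap and 3 lower, against 29.3% and 7.61% of all tested genes. HMGCS1, an early enzyme of that pathway, had a change of 0.53 ± 0.13 (adjusted p = 0.0823).

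The remaining falls named by the rule were of -0.97 to -0.67. GFRA1, a co-receptor for the neurotrophic factor GDNF (chromosome 10, 117816442 to 118033126), was at 2.65, 2.24 and 2.19 FPKM in DMSO 2 weeks, against 5.88 and 4.39 FPKM in DMSO 48 hours (-0.97 ± 0.16, adjusted p = 0.0147). Its call ended without DMSO 48 hours replicate 2 (0.159) or DMSO 2 weeks replicate 2 (0.0723) or 3 (0.0667). The others were KIRREL3, a cell adhesion gene (-0.95 ± 0.18, 0.0268), SYT13, a synaptotagmin (-0.87 ± 0.17, 0.0305), LINC00472 (-0.72 ± 0.13, 0.0221), PDE1C, a cyclic nucleotide phosphodiesterase (-0.67 ± 0.13, 0.0309), and ARHGAP29, a GTPase-activating protein (-0.67 ± 0.13, 0.0298). Each of these 5 lost its call in 4 to 6 of the 11 fits, with an adjusted p of up to 0.220. CRHR1-IT1 (-0.85 ± 0.16, 0.0310) and MSH5 (-0.76 ± 0.14, 0.0298) were summed over 2 and 8 loci and are uncertain. The 14 falls also hold TEX40, which lay under the level the naming rule asks for, and SNAR-E, which is described with the CSC comparison.

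The scaling between libraries also decided some of these calls. SNAI1, VTN, C1S, MMP7, TIMP2, FSTL3 and GABRE, which is described with the CSC comparison, missed the threshold under each of the 3 other scalings (limma, adjusted p of 0.0666 to 0.281). CALD1, HNF4A and ITGB6 missed it with a common sum (0.0603 to 0.0731) and after quantile normalization (0.0547 to 0.0606), and PER1 with a common sum (0.0603). The changes stayed above 0 in all of these.

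**Figure D3:**
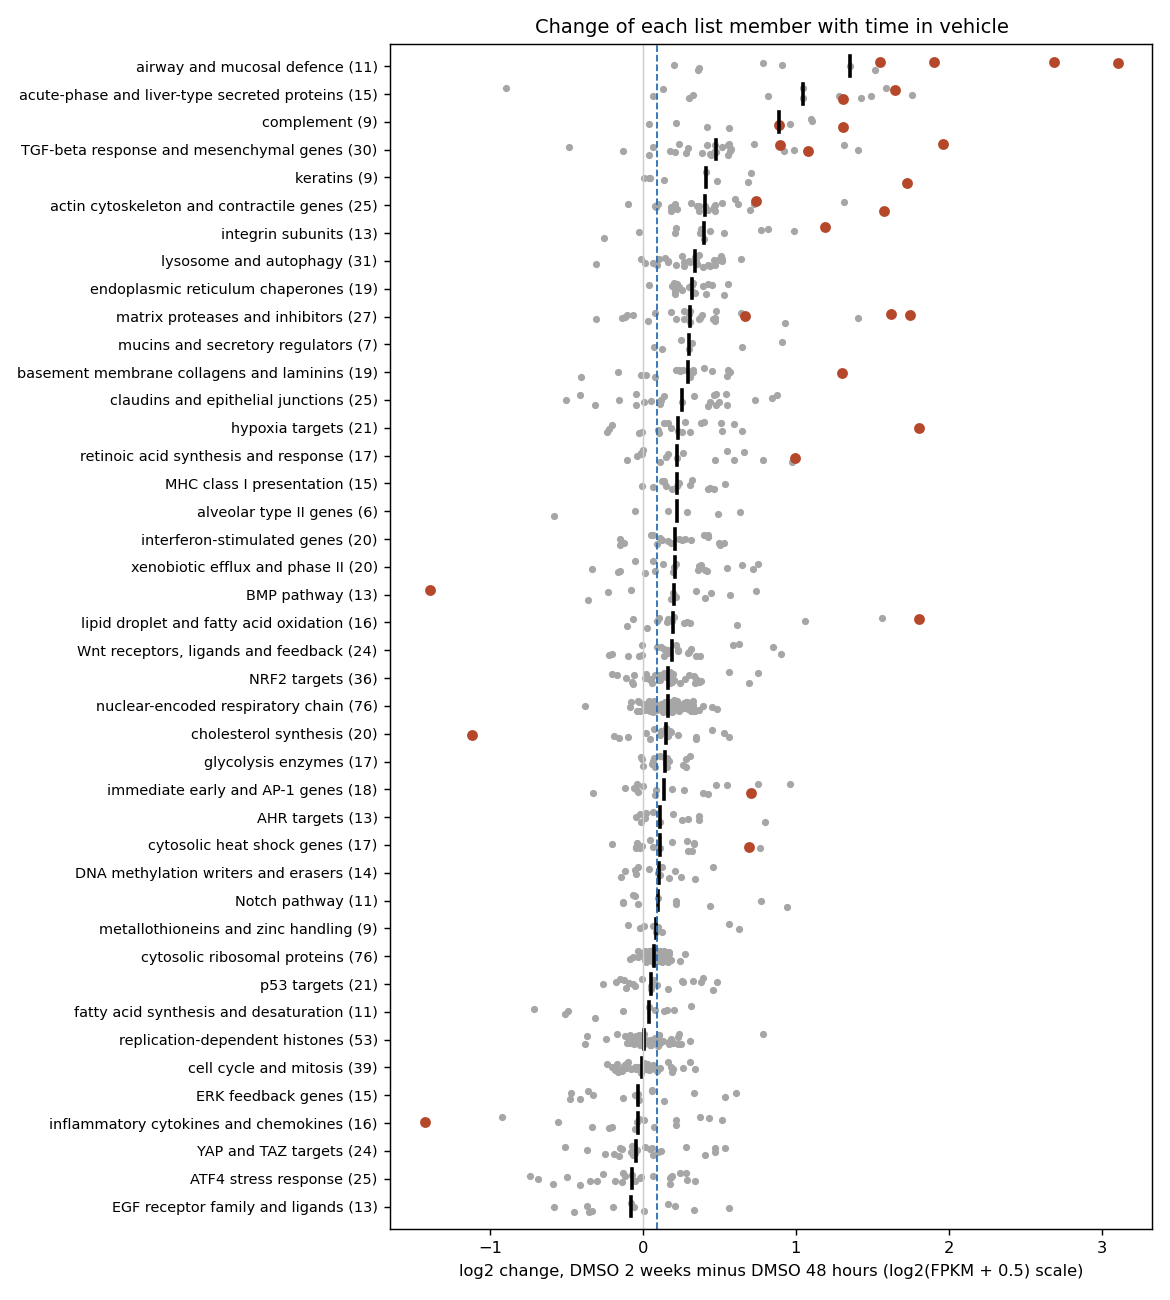
Log2 change (DMSO 2 weeks minus DMSO 48 hours) of each tested member of the lists with at least 5 tested genes. Red points are called genes, black bars list medians and the dashed line the median of all tested genes (0.09). Airway defence (1.35), acute-phase (1.05) and complement (0.89) have the highest medians.

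Of 45 lists with a measured gene, 18 held a called one. Among the lists with 0 called members, secretory and degradative compartments stood above the median of all genes. All 19 measured endoplasmic reticulum chaperones had changes above 0, against 69.0% of all tested genes, with a median of 0.32. Of them 18 were higher without overlap, against 29.3% of all tested genes. HSPA5, the chaperone BiP, was at 196, 197 and 165 FPKM in DMSO 2 weeks, against 161 and 140 FPKM in DMSO 48 hours (0.30 ± 0.15, adjusted p = 0.416). Of 31 lysosome and autophagy genes 29 were above 0, against 69.0% of all tested genes, with a median of 0.34. Higher without overlap were 22, against 29.3% of all tested genes, and lower without overlap 1, against 7.61%. That gene, picked out after its value was seen, was the cathepsin gene CTSL1 (-0.30 ± 0.15, adjusted p = 0.399). CD63, a lysosomal membrane protein, had a change of 0.52 ± 0.14 (0.105). Under the common sum these medians were 0.20 and 0.23, and under quantile normalization 0.14 and 0.20.

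The proliferation and stress programmes below held 0 called genes, and the cell cycle and ATF4 lists lay below the median of all genes (0.09). Over all tested genes 0.760% were called higher and 0.116% lower. The 39 cell cycle genes had a median of -0.003 (-0.12 and -0.15 with the common sum and the quantile scaling), and 0 were called by limma. Of them 19 were above 0, against 69.0% of all tested genes. In DMSO 2 weeks 8 were lower without overlap and 6 higher, against 7.61% and 29.3% of all tested genes. MKI67, a marker of cycling cells, was at 54.6, 62.0 and 61.2 FPKM in DMSO 2 weeks, against 64.4 and 64.0 FPKM in DMSO 48 hours (-0.12 ± 0.17, adjusted p = 0.841). CDKN1A, the p53-induced inhibitor of cyclin-dependent kinases, was at 19.5, 20.5 and 16.2 FPKM in DMSO 2 weeks, against 13.5 and 12.9 FPKM in DMSO 48 hours (0.49 ± 0.19, 0.287), while the 21 measured p53 targets had a median of 0.05. Medians were -0.07 for 25 ATF4 stress genes, 0.08 for 76 cytosolic ribosomal proteins, 0.01 for 53 replication-dependent histones and 0.17 for 36 NRF2 targets, with 0 genes called in each. Of the 25 ATF4 genes 9 had changes above 0, against 69.0% of all tested genes. Lower without overlap were 9 of them and higher 2, against 7.61% and 29.3%. A p that misses the threshold does not show that these genes were equal.

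Targets of AHR, the aryl hydrocarbon receptor through which cells sense smoke components, bear on vehicle as a control. Of 13 measured, 0 were called, against 0.760% called higher and 0.116% called lower over all tested genes. The median was 0.11, against 0.09 over all tested genes. CYP1B1, a cytochrome P450 that the receptor induces, was at 11.7, 12.6 and 9.96 FPKM in DMSO 2 weeks, against 5.43 and 7.35 FPKM in DMSO 48 hours (0.80 ± 0.29, adjusted p = 0.246). The groups did not overlap. CYP1A1, the classical target of the receptor (chromosome 15, 75011883 to 75017877), was at 0.0503, 0.217 and 0.0415 FPKM in DMSO 2 weeks, against 0.103 and 0.0535 FPKM in DMSO 48 hours, and lay under the level for testing. These values overlapped.

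The same interval in CSC gave more calls, from 3 libraries against 3, where DMSO had 3 against 2. Between CSC 2 weeks and CSC 48 hours 1551 genes rose (12.8%) and 165 fell (1.36%), with a median over all genes of 0.19 and 77.8% above 0. The FPKM summed to 484053, 387870 and 413718 in CSC 2 weeks, against 353627, 338507 and 343720 in CSC 48 hours. These CSC counts are given only as deposited, without rescaling. The numbers of calls therefore do not show which response was wider. The DMSO and CSC changes share no library but share 1 estimate of spread. Of the 92 rises in DMSO, 87 were above 0 in CSC, 53 were also called higher there (57.6% of the DMSO rises and 3.42% of the CSC rises) and 2 were called lower. Of the 14 falls in DMSO 13 were below 0 in CSC and 7 were called lower there. Over all 12108 genes the changes had a Pearson r of 0.416 and a Spearman rho of 0.421, given as a description, since genes are not independent.

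TGFBR1 was at 56.9, 69.4 and 54.7 FPKM in CSC 2 weeks, against 18.9, 19.8 and 19.4 FPKM in CSC 48 hours, a change of 1.61 (adjusted p = 1.04e-05) beside 1.96 in DMSO. SCNN1A changed by 1.95 in CSC (2.13e-04) beside 2.30 in DMSO, and CXCL5 by -1.85 (3.12e-06) beside -1.42. The difference between the DMSO and CSC changes was tested directly and called in 5 genes, 4 with a higher change in DMSO (0.0330%) and 1 with a lower one (0.00826%). CEACAM6 was at 5.46, 7.57 and 4.95 FPKM in CSC 2 weeks, against 17.6, 7.48 and 9.71 FPKM in CSC 48 hours. These CSC groups overlapped, and the value of 17.6 stood well above the rest. The CEACAM6 change was 1.90 in DMSO and -0.83 in CSC (adjusted p = 0.0399). The difference was 2.73 ± 0.36 (0.0232).

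CCL2, a chemokine for monocytes, was at 5.38, 7.2 and 4.42 FPKM in DMSO 2 weeks, against 5.94 and 2.27 FPKM in DMSO 48 hours (0.52 ± 0.29, adjusted p = 0.490). In CSC it was at 3.03, 2.20 and 2.09 FPKM at 2 weeks, against 12.8, 16.6 and 14.5 FPKM at 48 hours, a change of -2.37 (6.16e-04). The difference was 2.89 ± 0.39 (0.0232), and the DMSO change alone was -0.088 without DMSO 48 hours replicate 3. GABRE, a subunit of a GABA receptor, rose in DMSO (0.68 ± 0.14, 0.0428) and fell in CSC (-0.63, 0.0163), a difference of 1.31 ± 0.19 (0.0348). Its rise in DMSO was called in 4 of the 11 fits with a library left out (up to 0.246, without DMSO 48 hours replicate 2). RTN4RL2, a relative of the Nogo receptor, had changes of 0.47 in DMSO (0.119) and -0.70 in CSC (0.00915), a difference of 1.18 ± 0.18 (0.0389).

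SNAR-E belongs to a family of short, nearly identical RNAs. It was listed at 0 in all DMSO 2 weeks libraries and in all 6 CSC libraries, against 22.5 and 20.6 FPKM in DMSO 48 hours, so no fold is given. The counts of genes with a different change were unstable. The 4 higher became 0 without DMSO 48 hours replicate 3, without any 1 of the DMSO 2 weeks libraries, or without CSC 2 weeks replicate 1 or 3. They became 2 when DMSO 48 hours replicate 2 was left out, and also 2 when CSC 48 hours replicate 1 was. The 1 lower became 8 without CSC 48 hours replicate 3. Without either DMSO 48 hours library it was 0, since only 1 DMSO library then had SNAR-E above the level for testing. The difference was not called for NTS, which changed by 1.51 in CSC, nor for MMP28 (0.22), RBP4 (0.26) and DEFB1 (-0.33), with an adjusted p of 0.334 for MMP28, 0.542 for RBP4 and 0.537 for DEFB1.

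**Figure D4:**
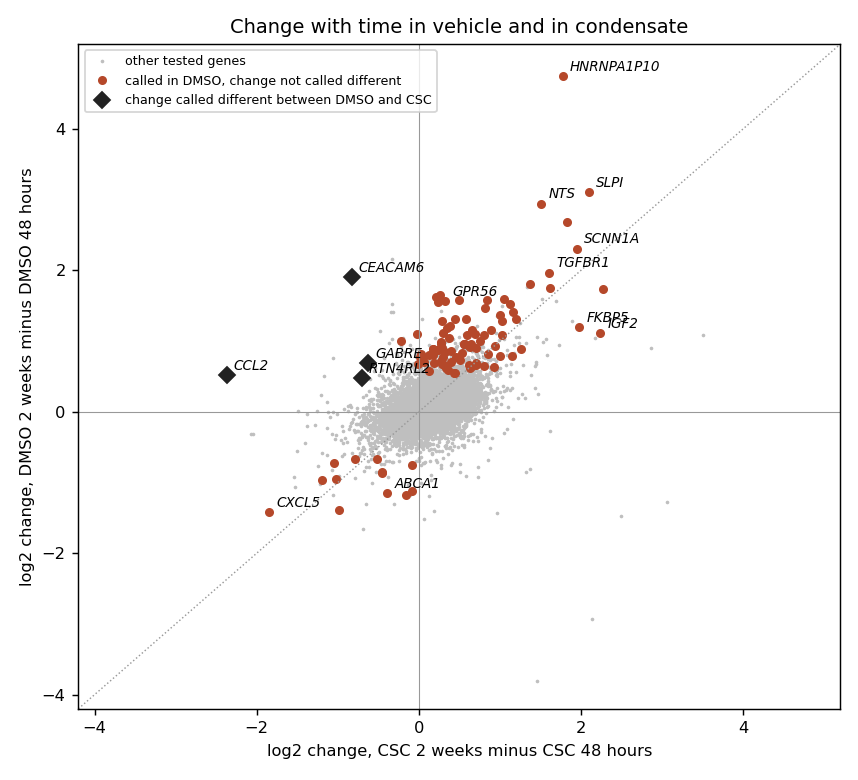
Log2 change (2 weeks minus 48 hours) in DMSO on the vertical axis and in CSC on the horizontal axis, with 1 point per tested gene. Red points are called in DMSO with no called difference between the changes, grey points are the other genes, the dotted line marks equal changes, and black diamonds are CCL2, CEACAM6, GABRE and RTN4RL2, whose changes were called different (SNAR-E is not drawn). Of the 92 genes that rose in DMSO, 87 lie to the right of 0.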

How the data were processed

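Per the labels' protocols, RNA from A549 cells was isolated with the GE Illustra TriplePrep kit, 2 µg went into libraries after Ribo-Zero Gold depletion of ribosomal RNA, and HiSeq2000 reads were aligned by TopHat2 (version 2.0.9, run on Illumina BaseSpace) to build hg19. CASAVA version 1.7.1a5 is listed in the submitters' processing notes. No source used here names the quantifier, the gene annotation or the strand setting. Overlapping and antisense genes may therefore share reads. For each library the authors deposited 1 FPKM value per gene and locus (25275 lines, 23609 symbols, per the file headers and values). FPKM of the 548 symbols at several loci were summed, and 1 gene marked as failed was left out. Relative depth came from the steps between values under an FPKM of 0.1, as the commonest log2 ratio of 2 libraries within 0.01. That ratio held 8.68% to 29.8% of the low lines, too few to recover whole reads, so no count model was used.

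Libraries were grouped by title. Testing took the 12108 genes that reached an FPKM of 1 in 2 or more of the 5 DMSO libraries. A gene could pass this filter through its levels in 1 group alone. The log2(FPKM + 0.5) values were fitted by limma 3.58.1 (R 4.3.3) with a mean-variance trend in eBayes, for 4 groups and all 11 libraries together without a replicate block, so that the DMSO 48 hours group of 2 shared the estimate of spread. The call threshold was 0.05 for the Benjamini-Hochberg adjusted p over all tested genes. Changes on this scale understate those of weakly expressed genes.

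The comparison, the members and the 46 gene lists were chosen with earlier results of these data known. Named genes are the 14 largest rises and the 14 largest falls (12 qualified) among called genes that averaged an FPKM of 2 or more in the higher group, had non-overlapping groups and no short RNA symbol, together with up to 5 called differences each way and up to 4 genes of smallest p from each list. CYP1A1, CYP1B1, MKI67 and CDKN1A were named whatever their values. Of the genes this rule names, some are not reported here in text or by name in the figures, 1 of the 12 falls among them; they stay in every fit, count and list median. The procedure was tested on simulated data with known changes before use. It recovered 29.9% of the 1.5-fold, 79.1% of the 2-fold and 100% of the 4-fold changes, with 8 false calls among 12108 genes. The alternatives tried were other pseudocounts, filters, scalings, estimates of spread, the replicate number as a block, only the DMSO libraries, symbols at 1 locus only (added after seeing the data) and each library left out in turn.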

Additional observations from a re-analysis of the deposited data

Results flagged for a closer look

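The change from 48 hours to 2 weeks differed between DMSO and CSC in 5 genes by a direct test of the difference (limma, Benjamini-Hochberg over 12108 genes). For CCL2 the change was 0.52 in DMSO and -2.37 in CSC (difference 2.89, adjusted p = 0.0232), and for CEACAM6 it was 1.90 in DMSO and -0.83 in CSC (2.73, 0.0232). For GABRE it was 0.68 in DMSO and -0.63 in CSC (1.31, 0.0348), and for RTN4RL2 it was 0.47 in DMSO and -0.70 in CSC (1.18, 0.0389). SNAR-E was listed at 0 in 9 libraries and was above 0 in both DMSO 48 hours libraries (adjusted p = 4.51e-07). The DMSO 48 hours group behind these differences has 2 libraries.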

How the results depend on the processing

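The numbers of genes higher and lower in DMSO 2 weeks, 92 and 14 as reported, were 38 and 4 without a filter on low values (19404 genes tested), 409 and 48 in a fit of only the 5 DMSO libraries, and 23 to 207 and 4 to 26 with 1 library left out. A filter at an FPKM of 5 gave 7 lower, and the rises numbered 48 under median-of-ratios scaling, 32 with the common sum and 44 after quantile normalization. Of the reported rises 48, 32 and 44 were called under these scalings, and all 14 falls were. Higher and lower differences between DMSO and CSC, 4 and 1 as reported, were 0 and 3 without a filter, and 0 to 5 and 0 to 8 with 1 library left out. A filter at an FPKM of 5 gave 2 lower, and eBayes without the trend 2 higher. With the replicate number as a block the counts were 72 higher and 12 lower, and 4 and 3 for the differences. The deviations of same-numbered DMSO libraries from their group means correlated at -0.237 and -0.224. In a group of 2 libraries the deviations mirror each other, so these values cannot show whether the numbers pair libraries. Between DMSO 48 hours and CSC 48 hours the same-numbered correlations were 0.251 and 0.228. Over the remaining pairs of groups they ranged from -0.23 to 0.273.

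Among named genes, changes that turned sign were not called before or after. With 1 library left out, CCL2 ranged from -0.088 (without DMSO 48 hours replicate 3) to 1.13, HIST1H2BH from -0.13 (the same library) to 1.7, THY1 from -0.21 (without DMSO 48 hours replicate 2) to 0.39, and CD14 from -0.078 (that library too) to 0.74. THY1 was also at -0.013 without DMSO 2 weeks replicate 3. With a common sum SLC30A1 was at -0.019 and THY1 at -0.0050, and under quantile normalization SLC30A1 was at -0.029, RPL10 at -9.66e-05 and RPL22 at -0.033. The cause was not tested. A DMSO 48 hours group of 2 libraries of unlike profile, and a depth known only in relative terms, limit every value above.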
